A study of Mus musculus with 10 samples.

Results

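The 10 surface markers that are used to stage thymocytes and T cell acute lymphoblastic leukemia (T-ALL) cells were followed across 10 leukemic mouse spleens. They were chosen by gene symbol, and all 10 of 10 listed symbols (Cd4, Cd8a, Cd8b1, Cd44, Cd24a, Thy1, Cd2, Cd5, Cd6 and Cd28) were found among 16865 in the table. Mice of the Sirt1 deleted group (5 libraries) had been injected intraperitoneally with tamoxifen, 3 mg for each mouse, dissolved in corn oil. Mice of the Control group (5 libraries) had been injected with the oil only. In both groups the recipients were sublethally irradiated mice injected intravenously with T-ALL cells that carry a conditional Sirt1 knockout, the strain was C57BL/6, and RNA came from red-cell-lysed suspensions of the whole spleen. Sirt1 encodes a NAD-dependent protein deacetylase. The Cre driver, the oncogene behind the leukemia, the number of primary leukemias, the age of the mice and the time from injection to harvest are not given in the sources used here. No group received tamoxifen without the deletion, so drug and deletion cannot be told apart. Nothing in the labels says which libraries share a leukemia, and p-values measure only the spread between these libraries.

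Thymocytes pass through stages that are read from their surface. The earliest cells lack both coreceptors, and CD44 together with the interleukin 2 receptor alpha chain orders them. Cells then gain CD4 and CD8 together and later keep 1 of the coreceptors, while the heat stable antigen CD24 is lost and CD5, CD6, CD2 and CD28 mark and tune antigen receptor signalling. T-ALL cells often keep the surface pattern of the stage at which they arose, and leukemias driven in mice frequently carry CD4 and CD8 together.

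The libraries held T lineage RNA together with RNA of other cells, and summed erythroid markers exceeded the T lineage sum in every library. The summed level of 9 T lineage markers (Cd3d, Cd3e, Cd3g, Cd247, Lck, Lat, Zap70, Bcl11b and Cd7) was 137319 to 162534 normalized counts in Sirt1 deleted spleens and 129608 to 143788 in Control spleens, with Cd7 at 30.6 at most (exact permutation p = 0.0397, 2 of the 9 called higher and 0 lower). Over all genes 14.5% were called higher and 17.5% lower. After the length and GC correction described below, 0 of the 9 were called, against 14.6% of all genes. Their median log2 difference was 0.18 as deposited and -0.021 corrected. Estimated depth was 21.1 to 39.0 M reads in Sirt1 deleted libraries and 28.4 to 44.3 M in Control libraries, so that 100 normalized counts stood for about 61.7 to 131 reads. Sirt1 itself averaged 918 ± 155 normalized counts in Sirt1 deleted and 1233 ± 97.6 in Control spleens (SD, n = 5 each, log2 difference -0.44, limma adjusted p = 0.0125), and the groups did not overlap. With the length and GC correction the log2 difference of Sirt1 was -0.25 (limma adjusted p = 0.0289). The gene-wise differences varied with the length of the transcript. The slope of a library's log2 deviations on log2 transcript length averaged -0.0981 ± 0.0862 in Sirt1 deleted and 0.0981 ± 0.0615 in Control libraries (SD, n = 5 each, exact permutation p = 0.00794, which is the smallest possible with groups of 5). Each marker is therefore given both as deposited and after length and GC content were regressed out of each library, a step that would take out a real effect along with an artificial one if it ran with length. The slopes did not overlap, at -0.240 to -0.0250 in Sirt1 deleted and 0.00352 to 0.161 in Control libraries. A fit with the slope as a covariate thus cannot fully separate slope from group, and no conclusion is drawn from it.

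All 10 markers passed the filter on low values, and they spanned a wide range of levels. Set per kilobase of the longest coding transcript and averaged over the 10 libraries, Thy1, a glycolipid-anchored glycoprotein of T cells, was highest at 31045 ± 2573 normalized counts per kb (SD, n = 10). Cd24a followed with 8510 ± 1758 per kb and Cd2 with 7258 ± 1095 per kb. These neighbours overlapped, and Cd24a lay above Cd2 in 7 of 10 libraries. Below a gap came Cd8b1 (1672 ± 200 per kb), Cd28 (1151 ± 266 per kb), Cd5 (881 ± 97.1 per kb), Cd6 (770 ± 102 per kb) and Cd8a (722 ± 69.6 per kb), each overlapping the next over the libraries. Cd4, at 238 ± 14.7 per kb, lay below Cd8a in all 10 libraries, and Cd44 was lowest at 88.1 ± 21.4 per kb, below Cd4 in all 10. The order rests on the longest transcript, which is least certain for Cd44, with 8 coding transcripts of 1305 to 5614 bases, and for Thy1, with 4 of 446 to 1735 bases.

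Of the 10 markers, 3 differed between the groups in the fit over all genes (limma on log2(value + 1), Benjamini-Hochberg adjusted p under 0.05). Cd28 and Cd24a were lower and Cd2 was higher in Sirt1 deleted spleens, while Cd44, Thy1, Cd8b1, Cd5, Cd4, Cd8a and Cd6 did not pass. Over all 13567 genes tested 32.0% were called, 14.5% higher and 17.5% lower, so the share of markers called was close to that of all genes. The median log2 difference was -0.044 for the markers and 0.00097 for all genes. After the length and GC correction Cd28 and Cd24a were called, 2 of 10 markers against 14.6% of all genes. Without the 3 libraries of steepest length slope (Sirt1 deleted library 5, Control libraries 1 and 2), 0 markers were called by limma, 2 had an unadjusted p under 0.05, and 0.0221% of all genes were called.

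**Figure D1:**
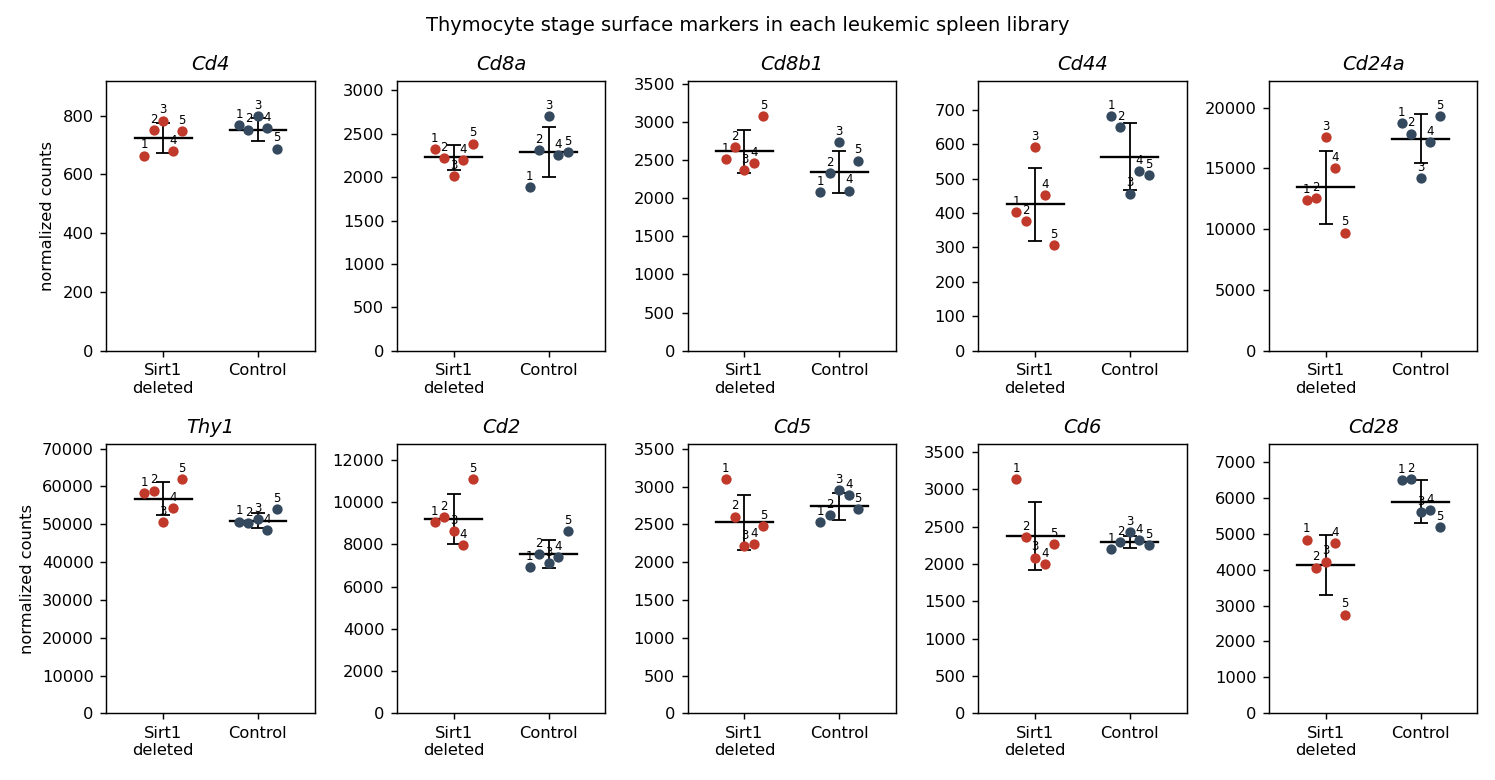
Normalized counts (y axis, from 0) of the 10 surface markers in each library, Sirt1 deleted at left and Control at right; points are libraries with their number, horizontal lines are means and bars are SD (n = 5). The groups are fully apart for Cd28 alone among the 10, with 2747 to 4836 in Sirt1 deleted and 5171 to 6522 in Control spleens.

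The coreceptor transcripts did not pass the test. Cd4, the coreceptor for MHC class II (chromosome 6, 124864692 to 124888221, minus strand, GRCm38), held 664, 751, 783, 678 and 748 normalized counts in Sirt1 deleted libraries 1 to 5 and 767, 752, 798, 757 and 688 in Control libraries 1 to 5. Sirt1 deleted libraries 1 and 4 lay below every Control library, and the other 3 lay among them. The log2 difference of Cd4 was -0.055 (SE 0.0684, 95% interval -0.20 to 0.092, limma adjusted p = 0.552), which corresponds to 0.869 to 1.07 times the Control level. After the length and GC correction it was -0.040 (95% interval -0.18 to 0.098, limma adjusted p = 0.704).

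Cd8a encodes the alpha chain of CD8, the coreceptor for MHC class I (chromosome 6, 71373427 to 71379173, plus strand). It held 2320, 2216, 2015, 2201 and 2387 normalized counts in Sirt1 deleted libraries and 1884, 2309, 2703, 2257 and 2291 in Control libraries. Every Sirt1 deleted value lay inside the Control range. Cd8a differed by -0.032 on the log2 scale (SE 0.0835, 95% interval -0.21 to 0.15, limma adjusted p = 0.791). After the length and GC correction it was 0.026 (95% interval -0.16 to 0.21, limma adjusted p = 0.863).

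Cd8b1, the beta chain that pairs with the alpha chain on conventional T cells (chromosome 6, 71322788 to 71337494, plus strand), held 2508, 2671, 2363, 2456 and 3074 normalized counts in Sirt1 deleted libraries and 2084, 2325, 2730, 2099 and 2493 in Control libraries. The groups overlapped, with Sirt1 deleted library 5 the highest of all. Cd8b1 differed by 0.16 on the log2 scale (SE 0.0882, 95% interval -0.033 to 0.35, limma adjusted p = 0.181), by 0.015 after the length and GC correction and by -0.12 with the length slope of each library as a covariate. The beta chain transcript has 1483 bases, against 3128 for the longest alpha chain transcript.

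Ratios inside a library do not depend on a scaling factor that all its genes share, and 3 were tested. Whether the authors' factors also differed between genes is not given in the sources used here. The log2 ratio of Cd4 to Cd8a was -1.62 ± 0.167 in Sirt1 deleted and -1.60 ± 0.185 in Control spleens (SD, n = 5 each, difference -0.023, SE 0.112, two-sided exact permutation p = 0.825, adjusted over the 3 ratios p = 0.825). Values ranged from -1.80 to -1.36 in Sirt1 deleted libraries and from -1.76 to -1.29 in Control libraries. The log2 ratio of Cd8a to Cd8b1 was -0.23 ± 0.0982 in Sirt1 deleted and -0.037 ± 0.101 in Control spleens (SD, n = 5 each). Its difference of -0.19 (SE 0.0629) had an exact permutation p of 0.0238, and adjusted over the 3 ratios the p was 0.0714, so it did not pass. After the length and GC correction the difference was 0.011 (exact permutation p = 0.849).

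**Figure D2:**
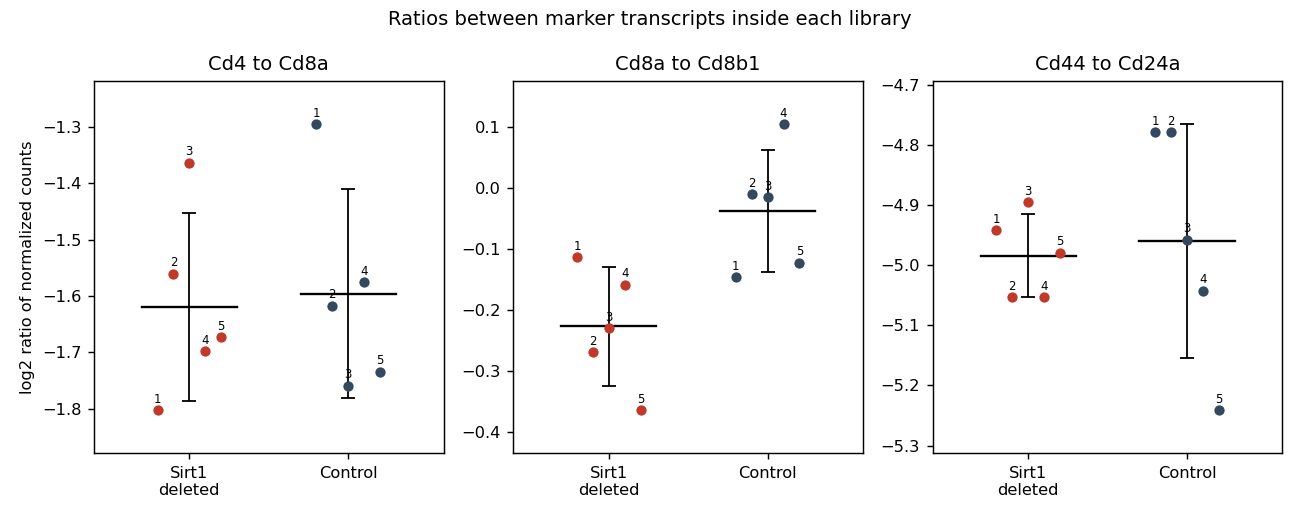
Log2 ratios of normalized counts inside each library (y axes do not start at 0 and differ between panels) for Cd4 to Cd8a, Cd8a to Cd8b1 and Cd44 to Cd24a, Sirt1 deleted at left and Control at right; points are libraries with their number, lines are means and bars are SD (n = 5). In all 3 panels the groups overlap, and the mean of Cd8a to Cd8b1 is lower by 0.19 in Sirt1 deleted spleens.

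Cd28, the costimulatory receptor for CD80 and CD86 (chromosome 1, 60716800 to 60773359, plus strand), had the largest log2 difference of the 10 as deposited, and Cd24a had the largest after the length and GC correction. Cd28 held 4836, 4054, 4222, 4734 and 2747 normalized counts in Sirt1 deleted libraries and 6499, 6522, 5606, 5652 and 5171 in Control libraries. Every Sirt1 deleted library lay below every Control library, as the groups did for 16.5% of all genes, and Sirt1 deleted library 5 was the lowest. The means were 4119 ± 835 in Sirt1 deleted and 5890 ± 597 in Control spleens (SD, n = 5 each), or 69.9% of the Control level. On the log2 scale Cd28 differed by -0.54 (SE 0.132, 95% interval -0.82 to -0.25, limma adjusted p = 0.0125, exact permutation p = 0.00794). After the length and GC correction it was -0.34 (adjusted p = 0.0250) and the groups overlapped. Cd28 was called whichever library was left out, with log2 differences of -0.60 to -0.40. It was not called without the 3 libraries of steepest length slope (-0.30, adjusted p = 0.0676). With the length slope as a covariate, a fit that cannot fully separate slope from group, it stood at 0.10.

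Cd2, an adhesion receptor that binds CD48 in mice (chromosome 3, 101275899 to 101287939, minus strand), was the marker called higher. It held 9057, 9291, 8639, 7953 and 11103 normalized counts in Sirt1 deleted libraries and 6935, 7561, 7106, 7409 and 8635 in Control libraries. Of the Sirt1 deleted libraries 4 lay above every Control library, and library 4 lay below Control library 5. The means were 9209 ± 1175 in Sirt1 deleted and 7529 ± 665 in Control spleens (SD, n = 5 each). On the log2 scale Cd2 differed by 0.29 (SE 0.0849, 95% interval 0.10 to 0.47, limma adjusted p = 0.0241, exact permutation p = 0.0159). Its transcript of 1153 bases is the shortest of the 10, and after the length and GC correction the difference was 0.083 (adjusted p = 0.297). With the length slope as a covariate it was -0.055. The call also ended when Sirt1 deleted library 2 or any of Control libraries 1 to 4 was left out, at differences of 0.26 to 0.29 and adjusted p of 0.0504 to 0.0665. Cd48, its ligand, was also higher, at 1455 ± 147 in Sirt1 deleted and 1255 ± 77.7 in Control spleens (log2 difference 0.21, limma adjusted p = 0.0446, corrected 0.073).

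Cd24a encodes the heat stable antigen, a small glycolipid-anchored protein high on immature thymocytes and also present on immature B cells, neutrophils and red cell precursors (chromosome 10, 43578284 to 43584265, plus strand). It held 12367, 12542, 17603, 15038 and 9711 normalized counts in Sirt1 deleted libraries and 18725, 17871, 14196, 17194 and 19297 in Control libraries. Sirt1 deleted libraries 1, 2 and 5 lay below every Control library, while libraries 3 and 4 overlapped the Control range. The means were 13452 ± 2989 in Sirt1 deleted and 17457 ± 1991 in Control spleens (SD, n = 5 each). On the log2 scale Cd24a differed by -0.40 (SE 0.134, 95% interval -0.69 to -0.11, limma adjusted p = 0.0389, exact permutation p = 0.0476). The length and GC correction left a difference of -0.44 (adjusted p = 0.0283, exact permutation p = 0.0159). With the length slope of each library as a covariate it was -0.069 (adjusted p = 0.992), and -0.24 (adjusted p = 0.297) when the 3 libraries with the steepest slope were left out. The call ended when any of Sirt1 deleted libraries 1, 2 and 5 or Control libraries 1, 2, 4 and 5 was left out, at differences of -0.40 to -0.29 and adjusted p of 0.0637 to 0.0895.

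Cd44, the hyaluronan receptor of the earliest thymocytes and of activated T cells (chromosome 2, 102811141 to 102901665, minus strand), held 402, 377, 591, 452 and 307 normalized counts in Sirt1 deleted libraries and 681, 650, 456, 521 and 509 in Control libraries. Sirt1 deleted library 3 was the exception to a lower level, since the other 4 lay below every Control library. Cd44 differed by -0.42 on the log2 scale (SE 0.159, 95% interval -0.76 to -0.077), and it did not pass (limma adjusted p = 0.0587, exact permutation p = 0.0635). After the length and GC correction it was -0.15 (adjusted p = 0.411), and with the length slope as a covariate 0.13. It was called without Sirt1 deleted library 3 (-0.55, adjusted p = 0.0162), without Control library 3 (-0.49, adjusted p = 0.0492) and with array weights (-0.44, adjusted p = 0.0228).

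The log2 ratio of Cd44 to Cd24a was -4.98 ± 0.0695 in Sirt1 deleted and -4.96 ± 0.195 in Control spleens (SD, n = 5 each, difference -0.024, SE 0.0924, exact permutation p = 0.81, adjusted over the 3 ratios p = 0.825). With the length and GC correction the difference was 0.29, the groups did not overlap and the exact permutation p was 0.00794, so the call on this ratio turns on the correction. The correction takes the longest Cd44 transcript of 5614 bases.

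Summed markers of other spleen cells were compared between the groups by exact permutation. The exact permutation p was 0.0635 for erythroid, 0.00794 for macrophage, 0.0238 for B cell and 0.0714 for neutrophil markers. It was 0.0873 for dendritic cell and 0.413 for NK cell markers. Over all genes 14.5% were called higher and 17.5% lower, and the counts called in these lists were not tested against that share. After the length and GC correction 6 of 11 erythroid and 6 of 12 macrophage markers were called lower, and 2 of 8 B cell markers higher. No neutrophil, dendritic cell or NK cell marker was called after it, against 14.6% of all genes called in either direction. The counts and sums that follow are as deposited. Summed erythroid markers (11 of 11 in the table, none near 0, 3 called lower and 0 higher) were 206737 to 469511 normalized counts in Sirt1 deleted and 423454 to 538432 in Control spleens, after a protocol that lyses red cells. Summed macrophage markers (12 of 12, 6 called lower and 0 higher) were 4203 to 7463 in Sirt1 deleted and 8052 to 12399 in Control spleens, with no overlap. Summed B cell markers (8 of 10 in the table, 3 called higher and 0 lower) were 282 to 474 in Sirt1 deleted and 213 to 291 in Control spleens. Neutrophil markers (10 of 10, 9 tested, 2 called higher and 0 lower) were 1997 to 8552 in Sirt1 deleted and 1456 to 4166 in Control spleens. Summed dendritic cell markers (7 of 8, 6 tested, 1 called lower and 0 higher) were 287 to 373 in Sirt1 deleted and 345 to 421 in Control spleens. Of the NK cell markers 4 of 7 were in the table, Klrd1 was under 10 in every library, and nearly all of the sum of 9162 to 11154 in Sirt1 deleted and 9077 to 11408 in Control spleens was Gzma. In limma with the mean erythroid marker score as a covariate the difference was -0.23 for Cd24a (adjusted p = 0.252), 0.27 for Cd2 (adjusted p = 0.0789) and -0.58 for Cd28 (adjusted p = 0.0297), while Cd5 was called lower (-0.29, adjusted p = 0.0168), so that 2 of 10 markers were called against 21.3% of all genes. With a macrophage and neutrophil score 3 of 10 markers were called, the same 3 as without it, against 30.2% of all genes. That score averages both lists, whose median log2 differences were -0.62 for macrophage and 0.91 for neutrophil markers. Opposite shifts offset each other in the average, so this fit cannot adjust for either cell type, and no conclusion is drawn from it. With the B cell score the difference was -0.057 for Cd24a, 0.18 for Cd2 and -0.39 for Cd28, and 0 of 10 markers were called by limma (0 at an unadjusted p under 0.05), as were 0.00737% of all genes. The B cell markers behind this score themselves differed between the groups (median log2 difference 0.46). This fit thus cannot fully separate score from group, and no conclusion is drawn from it. The part of other cells in these differences was not tested beyond these values, and in bulk RNA fewer cells of a type and less RNA per cell cannot be told apart.

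**Figure D3:**
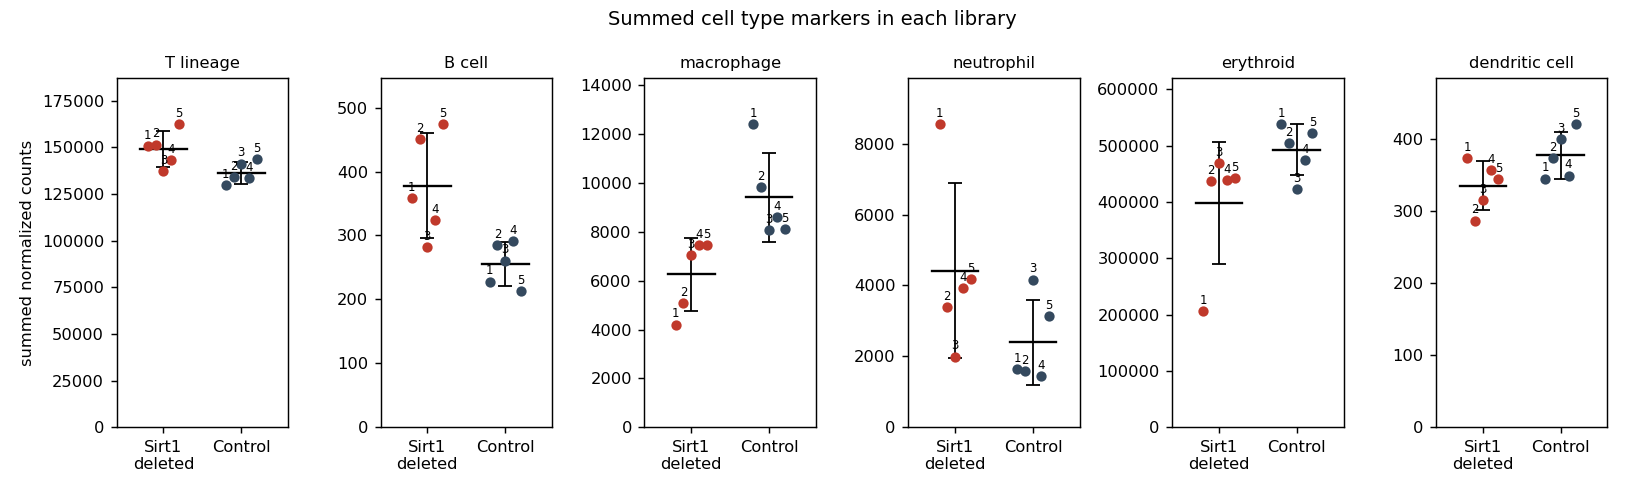
Summed normalized counts (y axes from 0, each with its own scale) of marker lists for T lineage, B cells, macrophages, neutrophils, erythroid cells and dendritic cells in each library, Sirt1 deleted at left and Control at right; points are libraries with their number, lines are means and bars are SD (n = 5). Sirt1 deleted library 1 has the lowest erythroid sum (206737) and the highest neutrophil sum (8552) of the 10 libraries.

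Thy1 (chromosome 9, 44043384 to 44048579, plus strand) held 58271, 58861, 50543, 54160 and 61965 normalized counts in Sirt1 deleted libraries and 50681, 50289, 51257, 48530 and 54066 in Control libraries. Sirt1 deleted library 3 lay within the Control range and the other 4 above it. Thy1 differed by 0.15 on the log2 scale (SE 0.0629, 95% interval 0.017 to 0.29) and did not pass (limma adjusted p = 0.0777, exact permutation p = 0.0476). After the length and GC correction it was -0.012 (95% interval -0.11 to 0.087), and with quantile normalization -0.038. It was called higher without Sirt1 deleted library 3 (0.19, adjusted p = 0.0278) and with array weights (0.15, adjusted p = 0.0344).

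Cd5 and Cd6 encode related scavenger receptor cysteine-rich proteins that restrain antigen receptor signalling, and they lie close together on chromosome 19 (10717116 to 10739002 and 10789341 to 10830058, both minus strand). Cd5 held 3102, 2602, 2211, 2241 and 2474 normalized counts in Sirt1 deleted libraries and 2528, 2623, 2952, 2884 and 2705 in Control libraries. Cd6 held 3140, 2365, 2088, 2001 and 2269 in Sirt1 deleted libraries and 2202, 2299, 2425, 2316 and 2253 in Control libraries. Sirt1 deleted library 1 had the highest value of both genes, while libraries 3 and 4 had the lowest of both. The log2 difference was -0.13 for Cd5 (SE 0.0867, 95% interval -0.31 to 0.062, limma adjusted p = 0.279) and 0.027 for Cd6 (SE 0.10, 95% interval -0.19 to 0.24, adjusted p = 0.852). After the length and GC correction Cd5 stood at -0.18 with a 95% interval of -0.35 to -0.015. It did not pass (limma adjusted p = 0.122, exact permutation p = 0.0952). Corrected, Cd6 stood at -0.037 (limma adjusted p = 0.813). As deposited but without Sirt1 deleted library 1, which also had the low erythroid and high neutrophil sums, Cd5 was called lower (-0.20, adjusted p = 0.0397) and Cd6 stood at -0.079 (adjusted p = 0.34).

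**Figure D4:**
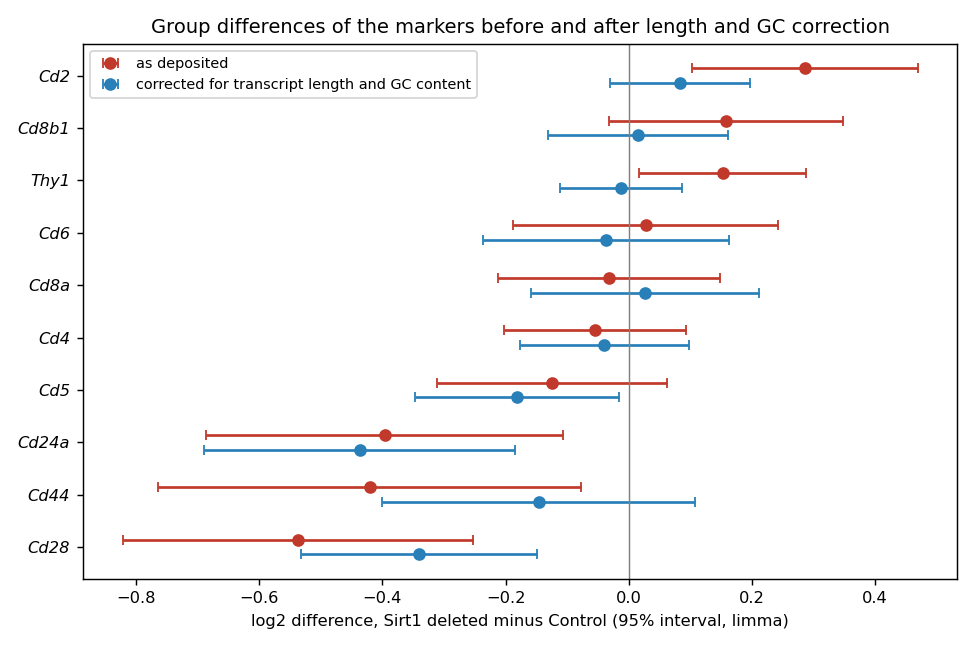
Log2 difference, Sirt1 deleted minus Control (x axis), of the 10 markers as deposited (upper point of each pair) and after correction for transcript length and GC content (lower point); bars are 95% intervals from limma with 5 libraries in each group. Cd28 (-0.54 and -0.34) and Cd24a (-0.40 and -0.44) have intervals below 0 in both, while that of Cd2 (0.29) includes 0 once corrected (0.083). The interval of Cd5 lies below 0 only once corrected (-0.18), and that of Cd44 only as deposited (-0.42).

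The markers were spread over the range of transcript lengths. The genome-wide trend had a Spearman rho of -0.61 between log2 difference and transcript length across 12397 genes, which are not independent replicates. In the quintile of shortest genes (312 to 1784 bases) the median log2 difference was 0.23, and 44.7% were called higher and 1.17% lower. Cd2, Cd8b1 and Thy1 belong there, with differences of 0.29, 0.16 and 0.15. In the middle quintile (2659 to 3606 bases) the median was -0.018, and Cd4, Cd8a, Cd5 and Cd6 there stood at -0.055, -0.032, -0.13 and 0.027. Cd28 in the next longer quintile (-0.54) and Cd24a in the next shorter quintile (-0.40) lay below the medians of those quintiles, -0.12 and 0.083. Cd44 (-0.42) lay in the quintile of longest genes, where the median was -0.28 and 52.1% were called lower.

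**Figure D5:**
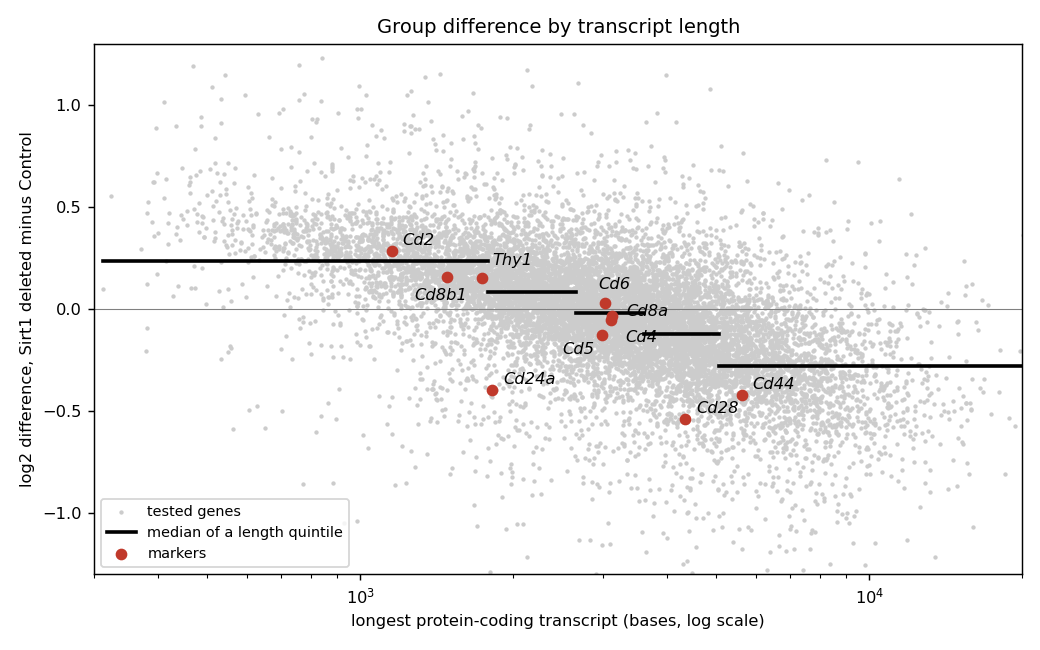
Log2 difference, Sirt1 deleted minus Control (y axis), against the length of the longest coding transcript in bases (x axis, log scale) for the tested genes (grey), with the 10 markers in red and black lines at the median of each length quintile; 69 genes lie outside the axes. Most markers sit near the line of their quintile, Cd24a (-0.40) and Cd28 (-0.54) being the farthest below it.

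Likeness was measured as the root mean square difference between log2 deviations from each gene's own mean over the 10 libraries, against 12437 other genes. The libraries differ in depth and length trend, which can move genes together, so a small distance is a description only. Cd2 was closest to Cd3g, the gamma chain of CD3 (distance 0.0397, where Cd2 itself varied by 0.198 around its mean), then Dxo and H2-Ke6. Thy1 was closest to Tap2 (0.02), Aamp and Stxbp2. Cd28 was closest to Atad2b (0.0379), Galnt7 and Ddx6, whose own log2 differences were -0.56, -0.51 and -0.50.

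Cd24a and Cd44 were each other's nearest marker (0.131), and both had Cpox, an enzyme of heme synthesis, among their 3 closest genes (0.101 and 0.115). The log2 difference of Cpox was -0.42 (SE 0.154, limma adjusted p = 0.0524). The others closest to Cd24a were Spire1 (0.0827) and Dnajb4, and those closest to Cd44 were Fnip2 (0.110) and Ell2. Cd5 and Cd6 were also each other's nearest marker (0.0949). Cd5 was closest to Traf4, Map3k14 and Tmem104, and Cd6 to Plec, Dlg4 and Plxna3, at distances of 0.0637 to 0.0926.

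Cd8b1 lay nearer to Thy1 (0.101) than to Cd8a (0.13), and was closest to Tm2d3 (0.0480), Ift46 and Tmem222. Cd8a was closest to Smarcad1 (0.0717), Tmem173 and Rapgef3, and Cd4 to Ufl1 (0.0404), Ddx1 and Tmbim1.

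Other genes of the same stages and pathways were counted as lists. Of 9 genes of early thymocytes 8 were tested, of which 1 was called higher, 2 lower and 5 did not pass (median log2 difference -0.077, against 0.00097 for all genes). Over all genes 14.5% were called higher and 17.5% lower, 32.0% in all, and the count in this list is near that share. Il2ra, the interleukin 2 receptor alpha chain read together with CD44, was at 27238 ± 3392 in Sirt1 deleted and 36208 ± 2387 in Control spleens (SD, n = 5 each, log2 difference -0.42, limma adjusted p = 0.00855, corrected -0.23). Rag1, of the recombinase, was at 15608 ± 2361 in Sirt1 deleted and 24641 ± 3882 in Control spleens (-0.66, adjusted p = 0.00797, corrected -0.33). Ptcra, the pre-T cell receptor alpha chain, was at 17725 ± 2741 in Sirt1 deleted and 13731 ± 1269 in Control spleens (0.36, adjusted p = 0.0167, corrected 0.12). Both falls were called after the correction, and the rise was not. Kit (-0.017), Dntt (-0.020), Rag2 (-0.13), Il7r (-0.21) and Flt3 (0.32) did not pass, and Cd34 was below the filter on low values.

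Of 12 genes of later stages 1 was called higher, 2 lower and 9 did not pass (median 0.062), against 32.0% of all genes called. Cd52 was at 309 ± 73.9 in Sirt1 deleted and 213 ± 19.4 in Control spleens (log2 difference 0.50, adjusted p = 0.0197). The chemokine receptor gene Ccr4 was at 1513 ± 278 in Sirt1 deleted and 1915 ± 106 in Control spleens (-0.36, adjusted p = 0.0246). None of the 12 was called after the length and GC correction in limma, against 14.6% of all genes, where Ccr4 stood at -0.32 (adjusted p = 0.0546). The activation marker Cd69 (-0.090), the lipid presenter gene Cd1d1 (0.034) and the lymph node homing receptor gene Ccr7 (-0.063) did not pass.

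Of 23 ligands, related receptors and kinases of the markers 22 were tested, of which 3 were called higher, 6 lower and 13 did not pass (median -0.042), against 14.5% of all genes called higher and 17.5% lower. Alcam, which encodes the CD6 ligand, was below the filter. Ptprc, the CD45 phosphatase that activates LCK, was at 22538 ± 3514 in Sirt1 deleted and 33746 ± 2555 in Control spleens (log2 difference -0.59, adjusted p = 0.00797, corrected -0.34 and still called). Lower were also Ubash3a (-0.26), whose product restrains receptor signalling, Cd2ap (-0.32), whose product binds the CD2 tail, and Pik3r1 (-0.26), and higher was Pstpip1 (0.34), which encodes another CD2 tail partner. None of these 4 was called after the correction in limma, while Csk, the kinase that holds LCK inactive, was called lower (-0.18, adjusted p = 0.0206; -0.050 as deposited). Other called genes, Icos (-0.35), a receptor of the CD28 family, Lat (0.18) and Cd48, are named after their values were seen. Lck, the kinase held by CD4 and CD8, was at 35150 ± 1496 in Sirt1 deleted and 34610 ± 1645 in Control spleens (log2 difference 0.023, SE 0.0529, adjusted p = 0.766). Of the CD28 ligands Cd80 (0.42) and Cd86 (-0.40) did not pass.

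Of 16 regulators of coreceptor choice and stage 1 was called higher, 6 lower and 9 did not pass (median -0.17), against 14.5% of all genes called higher and 17.5% lower. With the length and GC correction 1 was called higher and 0 lower, against 14.6% of all genes called in either direction. Satb1, a chromatin organizer of thymocytes, was at 14754 ± 1547 in Sirt1 deleted and 18925 ± 1299 in Control spleens (log2 difference -0.36, adjusted p = 0.00856). The E protein gene Tcf12 (-0.38), Ikzf1 (-0.28), which encodes Ikaros, Ets1 (-0.40) and Tox (-0.31) were lower and the E protein gene Tcf3 (0.21) was higher. Myb (-0.24), named after its value was seen, was the remaining call. After the length and GC correction none of these 7 was called in limma, while Runx1, a repressor of Cd4 in early thymocytes, was called higher (0.28, adjusted p = 0.00745; 0.0034 as deposited). Zbtb7b, which directs the CD4 fate, was low at 48.1 ± 16.1 in Sirt1 deleted and 40.6 ± 8.06 in Control spleens, and Runx3, which directs the CD8 fate, stood at 259 ± 17.5 in Sirt1 deleted and 279 ± 26.2 in Control spleens. Neither passed (adjusted p = 0.619 and 0.38).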

How the data were processed

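RNA of 5 Sirt1 deleted and 5 Control leukemic spleens was sequenced from strand-specific libraries, per the labels' protocols. The authors deposited, as their signal, counts normalized with DESeq (no version given) after kallisto 0.44.0 on build mm10, per the submitters' processing notes. The annotation, gene filter and use of strand are not given in the sources used here. Values are not whole: 83.3% to 91.0% of values below 8 lay within 0.1 of a multiple of each library's step, so count models were not fitted, and depths are totals divided by the step. All 10 columns were used (0 left out).

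Genes with a value of 10 or more in at least 5 libraries (13567) were compared as log2(value + 1) with limma-trend (limma 3.58.1, R 4.3.3), no covariate, two-sided, with Benjamini-Hochberg adjusted p-values over all genes, called at 0.05. Single values had exact permutation tests over all 252 ways to assign 10 libraries. GENCODE M21 (GRCm38) gave positions and the longest coding transcript, known for 12397 tested genes (91.4%) and all markers. The length and GC correction subtracted natural splines (5 degrees of freedom each) fitted in every library. Steps were tested on simulated data. Permutations ran in numpy 2.4.6 under Python 3.11.15 (pandas 2.3.3), t quantiles and the Spearman rho came from scipy 1.17.1, and plots from matplotlib 3.10.9. The markers and lists were chosen with earlier results of these data known. From each of the 4 related lists, called genes are named by smallest p, up to 6; for likeness, the 3 closest genes per marker, passing over clone names, pseudogenes and receptor segments. Some genes that this rule picks are not reported here. Further genes of those lists, and Cpox's values, were picked after values were seen.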

Additional observations from a re-analysis of the deposited data

How the results depend on the processing

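Over 25 alternatives, the log2 differences of the 10 markers gave 250 values, of which 207 kept direction and side of the threshold. Of the others 22 kept direction but lost a call, 7 gained one and 14 changed sign. Among those 14, Cd2 and Cd28 with the length slope as a covariate also lost their calls. The cause of these changes was not tested unless named. The number of genes called was 4344 as reported, 5325 with array weights, 1810 with the length and GC correction, 0 with the length slope as a covariate (577 at an unadjusted p under 0.05), 1 with the B cell score, 3 without the 3 libraries of steepest slope, and 2200 to 4712 with single libraries left out (2711 without Sirt1 deleted library 2, 2335 and 2200 without Control libraries 1 and 2). Of the markers 3 were called as reported, 5 with array weights, 0 with the slope covariate, the B cell score or the steepest libraries left out, and 1 to 5 with single libraries left out. The count was 1 without Sirt1 deleted library 2 or Control library 1, 2 or 4, with Cd28 the marker called each time, and 5 without Sirt1 deleted library 3.

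The Cd4 to Cd8a difference was 0.083 without the steepest libraries and -0.087 to 0.052 with single libraries left out. The Cd8a to Cd8b1 difference was 0.011 with the correction, -0.18 without the steepest libraries (exact permutation p = 0.0857) and -0.22 to -0.15 with single libraries left out. It missed an exact p of 0.05 without Sirt1 deleted library 5 or Control library 4. The Cd44 to Cd24a difference was 0.29 with the correction, 0.095 without the steepest libraries and -0.095 to 0.021 with single libraries left out. The slopes of the groups do not overlap, so the slope covariate cannot fully separate slope from group. With it Cd8b1 (-0.12), Cd44 (0.13), Cd2 (-0.055) and Cd28 (0.10) changed sign. Thy1 did so with quantile normalization (-0.038) and the correction (-0.012), Cd8a with the same (0.014 and 0.026), and Cd6 with the correction (-0.037), the B cell score (-0.073) and the erythroid score (-0.18), an alternative chosen after the data were seen. With single libraries left out Cd8a ran from -0.10 to 0.030 and Cd6 from -0.079 to 0.084.

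No paired analysis was possible because the labels number no library to match one of the other group. Depth limits little here, since the lowest marker value, 307 normalized counts of Cd44, comes from a library where 100 normalized counts stood for about 102 reads.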
